A study of Caenorhabditis elegans with 9 samples.

Results

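F26A3.4 is a protein-coding gene of the nematode Caenorhabditis elegans on chromosome I, at 7656978 to 7658291 of the WBcel235 assembly, a span of 1314 bases. It was measured here by 1 spot, the only one that the platform's annotation names F26A3.4, among 21888 spots and 7200 distinct gene names. It was chosen by its high ratio of H over N RNA on these 9 arrays, so that ratio is described below without a test, on every array and in every genotype. What the gene's protein does is not given in the sources used here, and no role is stated for it. In the RefSeq gene table its nearest annotated protein-coding neighbour is ego-1, which encodes an RNA-dependent RNA polymerase of the germ line and ends 639 bases away; ego-1 has no named spot among the features tested.

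The 9 spotted 2-colour arrays compared total RNA called H, labelled with Cy3, with total RNA called N, labelled with Cy5, both from one genotype under one replicate number. There were 3 arrays each for wild type, hif-1 and vhl-1 animals, and as the series title names hypoxia, H is read as hypoxia and N as normoxia. The labels give no allele, strain background, stage, tissue, oxygen level or exposure time, and do not state if replicates came from separate cultures. The values are log ratios whose base and direction are not stated: base 2 was assumed, and signs were reversed to make positive values mean more RNA in H, a direction that is likely because the titles put N before H. With the other reading F26A3.4 would be among the most lowered features instead. All arrays carry the dyes the same way, so a dye effect on this probe cannot be told apart from a response to H, while an effect that is alike on all arrays cancels between genotypes. An array ratio gives no level of the transcript in either RNA, and in RNA of whole samples fewer cells of a type and less RNA per cell cannot be told apart.

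When oxygen is plentiful in C. elegans, the prolyl hydroxylase EGL-9 modifies the transcription factor HIF-1, and the ubiquitin ligase subunit VHL-1 then binds it for degradation. In hypoxia HIF-1 escapes this and activates its targets. A gene whose induction needs HIF-1 loses it in a hif-1 mutant, and a gene that HIF-1 alone controls can already be high at normal oxygen in a vhl-1 mutant, which leaves less room for a further rise. Heat shock proteins are chaperones that many stresses induce through another factor, HSF-1. No named spot carries hif-1 or vhl-1, so neither mutation was checked in the values.

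F26A3.4 was higher in H than in N on all 9 arrays. In wild type its log2 ratio of H over N was 1.62 on array 1, 4.27 on array 2 and 3.07 on array 3. Array 2 gave the highest value of the 9, a 19.3-fold ratio, and array 1 the lowest of its genotype, a 3.07-fold ratio. The wild type mean was 2.98 ± 1.33 (SD, n = 3), or 7.91-fold. Among the 20858 features tested, 7179 named genes and 13679 spots without a gene name, this was the highest wild type mean (rank 1), as is given here for description only.

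In the hif-1 mutant the ratio was 0.64 on array 1, 2.02 on array 2 and 3.16 on array 3. The lowest of the 9 values is thus a hif-1 mutant array, a 1.55-fold ratio, and the second highest of the 9 is also a hif-1 mutant array. The mean was 1.94 ± 1.26 (SD, n = 3), or 3.84-fold, and ranked 15 among all features and 8 among named genes. F26A3.4 therefore kept a high ratio on hif-1 mutant arrays 2 and 3, while array 1 lay close to the bulk of features.

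In the vhl-1 mutant the ratio was 1.35 on array 1, 2.19 on array 2 and 3.12 on array 3. These values spread less than those of the other genotypes and all lie inside the range of the wild type and hif-1 mutant values together. The mean was 2.22 ± 0.89 (SD, n = 3), or 4.65-fold, with rank 10 among all features and 3 among named genes.

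**Figure D1:**
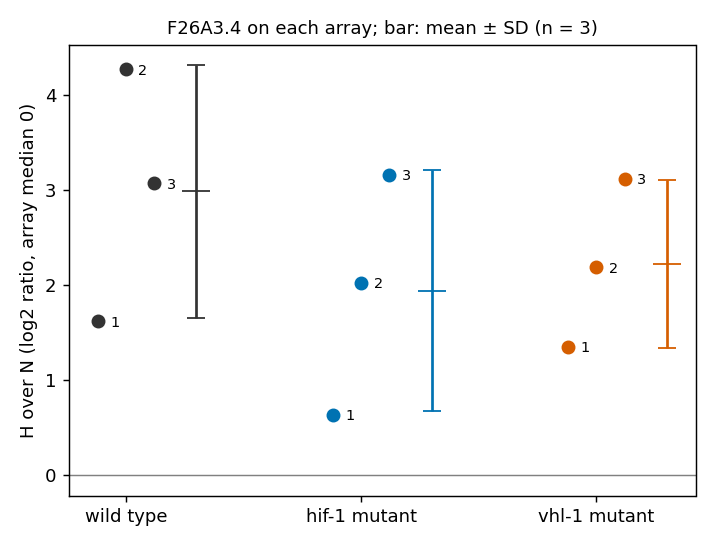
Log2 ratio of H over N of F26A3.4 on each array (points, labelled with the replicate number) by genotype, with the mean and SD of the 3 arrays beside them. All 9 points lie above 0, from 0.64 to 4.27, and the ranges of the 3 genotypes overlap.

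The order of the genotype means was wild type, vhl-1 mutant, hif-1 mutant, and neighbours in that order differed by less than the SD within either. Over all 9 arrays the ratio had a mean of 2.38, a median of 2.19 and an SD of 1.12. Its range of 3.63 log2 units corresponds to 12.4-fold between arrays. The genotype accounted for 17.5% of the sum of squares over the 9 arrays and the differences between arrays of one genotype for the rest. Most rearrangements of the genotype labels gave at least this share (exact permutation p = 0.571). The residual SD of the fit was 1.18, against a median of 0.46 over all features, and 98.5% of features had a lower one. Of the 160 features whose mean over genotypes was at least 2 log2 units from 0 in either direction, 76.9% had a lower one. Of these 160, only the top 6 by mean were raised in H, with F26A3.4 at rank 6 and rank 7 at 1.94. The SDs within genotypes ran from 0.91 to 1.93 for the features of rank 1 to 5. For F26A3.4 they ran from 0.89 to 1.33. F26A3.4 thus combined a large mean ratio with a large spread between arrays, as did the other most raised features.

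The place of F26A3.4 within each array differed in the same way. It ranked 7 from the top on wild type array 2, 6 on wild type array 3, 11 on hif-1 mutant array 3 and 9 on vhl-1 mutant array 3, of 20665 to 20740 features with a value. On vhl-1 mutant array 2 it ranked 51, on wild type array 1 75, on hif-1 mutant array 2 243 and on vhl-1 mutant array 1 265. On these 8 arrays at least 98.7% of features had a lower value. On hif-1 mutant array 1 it ranked 3945, with 80.9% of features lower. Divided by the array's own spread (the scaled median absolute deviation of all spots), the value ran from 0.92 on hif-1 mutant array 1 to 8.20 on wild type array 2.

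**Figure D2:**
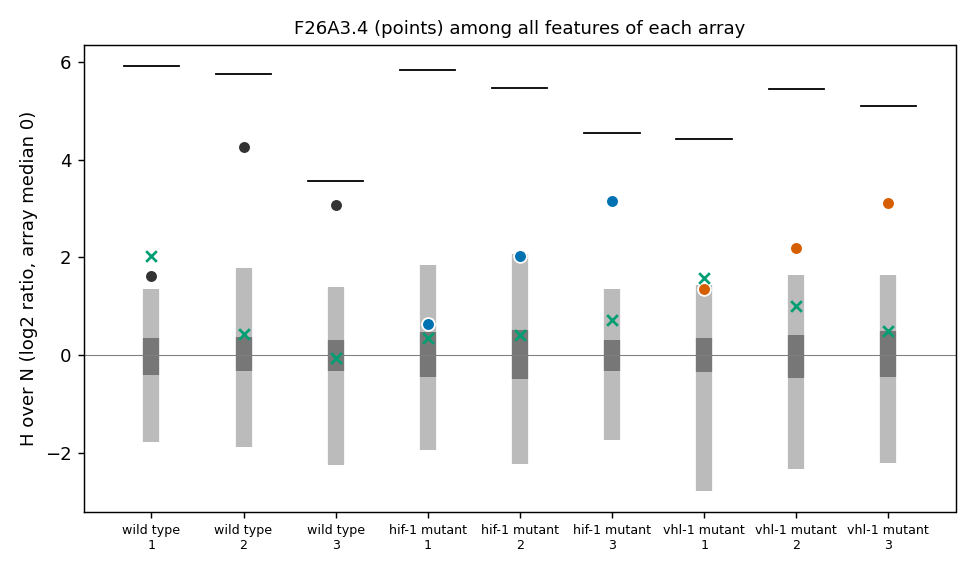
F26A3.4 (points, coloured by genotype) on the log2 H over N scale of each array, beside the central 50% of all features (dark bars), their 1st to 99th percentile (light bars) and the highest feature (black line). Green crosses mark the highest of the 10 spots numbered next to F26A3.4. F26A3.4 ranks between 6 and 11 on 4 arrays and lies within the light bar on hif-1 mutant arrays 1 and 2 and on vhl-1 mutant array 1.

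The spots numbered next to F26A3.4 did not share its ratio on most arrays. Neighbouring spots and print blocks were derived here from the spot numbers alone. The 5 spots on either side of it in spot number had means over the 9 arrays between -0.33 and 0.25. On wild type array 1, however, the median of these 10 spots was 0.77 and the highest of them 2.04, above F26A3.4 itself. The median of the whole print block of 684 spots was also raised there, at 0.51, while on the other 8 arrays it lay between -0.17 and 0.06. Centred on its block, F26A3.4 was at 1.11 on wild type array 1. On vhl-1 mutant array 1 a single neighbouring spot, T08E11.8, lay above it (1.59). With every print block centred on its own median the means of F26A3.4 were 2.83 (wild type), 2.09 (hif-1 mutant) and 2.25 (vhl-1 mutant), each within 1 SD of the values above. At the 31 spots at the same place of the other print blocks the median of the means over arrays was -0.14 and the highest 1.19.

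F26A3.4 is 1 of 1076 features, 5.53% of the 19473 with a value on every array, that were higher in H on all 9. Only 2 features, the neighbouring, closely similar HSP70 genes F44E5.4 and F44E5.5, exceeded 1 log2 unit on each of the 9 arrays. F26A3.4 missed this by hif-1 mutant array 1. In the mean over genotypes it ranked 6, after F44E5.5 (2.89), F44E5.4 (2.81) and 3 spots without a gene name, and ahead of hsp-16.21 (1.94).

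The differences between genotypes are built from the same 9 values by which F26A3.4 was chosen, partly for its high wild type mean, which pulls the differences from wild type downward. Their p-values, from limma's fit over all features with Benjamini-Hochberg adjustment, are therefore a description and no independent evidence. The hif-1 mutant was 1.04 log2 units below wild type (difference -1.04, SE 0.71, 95% interval -2.58 to 0.49), and the difference did not pass the test (adjusted p = 0.923). On the linear scale the ratio in the hif-1 mutant was 0.485 times that in wild type, with an interval from 0.168 to 1.40. The data therefore allow both a loss of most of the wild type ratio and no loss. The arrays of both genotypes overlap, as they do for most features: in 9.16% of features the 3 hif-1 mutant and 3 wild type arrays did not overlap, and 0 features (0%) passed in this comparison, with 1239 at an unadjusted p under 0.05 where 1043 would be expected by chance.

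The vhl-1 mutant was 0.77 below wild type (difference -0.77, 95% interval -2.30 to 0.77; adjusted p = 0.776), again with overlapping arrays; 0.00479% of features passed and in 18% the arrays did not overlap. The vhl-1 mutant was 0.28 above the hif-1 mutant (95% interval -1.25 to 1.81; adjusted p = 0.964), with overlapping arrays where 11% of features had none, and 0 features (0%) passed. Neither difference was larger than the spread between arrays. limma's F test for any difference among the 3 genotypes gave an adjusted p of 0.841 for F26A3.4, and 0 of 20858 features passed it, with 1743 at an unadjusted p under 0.05. A two-sided exact permutation test of the genotype labels on this gene alone gave p = 0.5 for the hif-1 mutant and p = 0.5 for the vhl-1 mutant against wild type, where 3 against 3 arrays cannot go below 0.1. Over all 3 genotypes the exact permutation p was 0.571, where the smallest possible is 0.00357. These p-values reflect the spread between these arrays alone, which may be technical. A p that misses the threshold does not show that the genotypes respond alike.

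How far the hif-1 mutant lay from wild type depended on single arrays: the difference was -0.39 when hif-1 mutant array 1 and -0.40 when wild type array 2 was left out, and -1.73 when wild type array 1 and -1.65 when hif-1 mutant array 3 was left out, none past the test. The difference between the mutants changed sign without hif-1 mutant array 1 (-0.37) or vhl-1 mutant array 3 (-0.17).

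**Figure D3:**
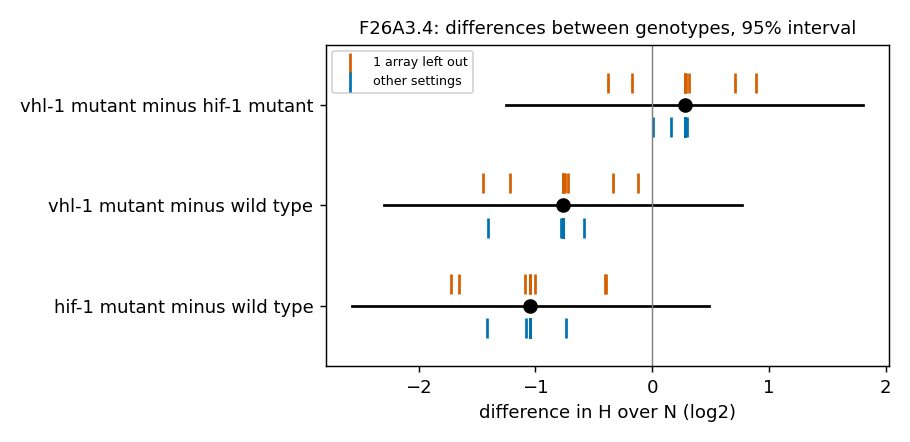
Differences between genotypes in the log2 H over N ratio of F26A3.4 (black points) with their 95% intervals (lines), the values with 1 array left out (orange ticks above) and those under the other settings (blue ticks below). All 3 intervals include 0, and the hif-1 mutant minus wild type values run from -1.73 to -0.39 when 1 array is left out.

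The gene F22B5.4, which is used as a HIF-1 target, is set beside F26A3.4 for comparison. It was at 0.94, 2.51 and 3.33 on the wild type arrays, between -0.33 and 0.60 on the hif-1 mutant arrays and between 0.08 and 0.74 on the vhl-1 mutant arrays. Its wild type arrays lie above all arrays of both mutants (no overlap with the hif-1 mutant was seen in 9.16% of all features and none with the vhl-1 mutant in 18%), whereas for F26A3.4 the 3 genotypes overlap. In wild type F22B5.4 rose by 2.26 ± 1.21 (SD, n = 3; limma adjusted p = 0.00813), a call lost without wild type array 2 (0.0794) or array 3 (0.0851). Its own differences between genotypes did not pass: the hif-1 mutant minus wild type was -2.05 (limma adjusted p = 0.603) and the vhl-1 mutant minus wild type -1.96 (adjusted p = 0.280), so a call in wild type alone does not show that F22B5.4 responded differently in the mutants. Whether the genotype difference of F26A3.4 differs from that of F22B5.4 was not tested. F22B5.4 is the 1 measured member of a list of 11 genes of the HIF pathway and its targets. The list thus had 1 of 1 called in wild type and 0 of 1 in either mutant. Over all features 1.42% were called in wild type, 1.75% in hif-1 and 9.18% in vhl-1 mutant arrays. These counts moved when 1 array was left out, which also leaves fewer arrays to the fit. The lowest were 82 in place of 296 without wild type array 3 and 58 in place of 365 without hif-1 mutant array 2. For the vhl-1 mutant the lowest was 412 in place of 1915, without vhl-1 mutant array 2.

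Of 27 heat shock and chaperone genes listed, 4 had a tested spot: the small heat shock genes hsp-16.20 and hsp-16.21, and F44E5.4 and F44E5.5. In wild type 1 of the 4 was called higher (0.225% of all features), in hif-1 mutants 3 (0.475%) and in vhl-1 mutants 2 (4.03%), and none was called lower. Their median was 2.00, 2.52 and 2.47 in these genotypes, against 0.01, 0.02 and -0.00 over all features. These genes were listed with earlier results of these data known. F44E5.5, whose spot may also take up RNA of F44E5.4, had its highest mean in the vhl-1 mutant, with 4.06 ± 1.09 (SD, n = 3) and an adjusted p of 0.000788. For hsp-16.21 the hif-1 mutant was highest, with 2.82 ± 0.65 (SD, n = 3) and an adjusted p of 0.00915. F26A3.4 had its highest mean in wild type, and so did hsp-16.20, which was called in no genotype. The means of hsp-16.20, from 8 arrays, were 1.65 (wild type), 0.78 (hif-1) and 0.13 (vhl-1). These orders were not tested against each other. No difference between genotypes passed for hsp-16.21 (limma adjusted p from 0.536 to 0.938), F44E5.5 (from 0.382 to 0.974) or hsp-16.20 (from 0.418 to 0.937). In wild type the heat shock call was that of hsp-16.21 (2.10 ± 1.41, SD, n = 3; adjusted p = 0.0295), which was lost without wild type array 2 (0.287) or array 3 (0.0980). The hif-1 mutant calls of F44E5.4 and F44E5.5 were lost without hif-1 mutant array 2 (0.0962 and 0.0986) or array 3 (0.125 and 0.112).

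**Figure D4:**
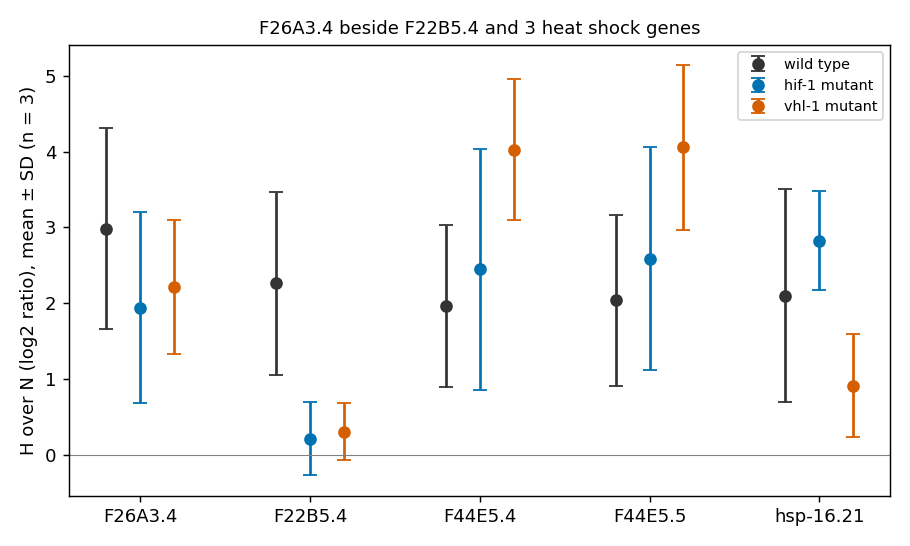
Mean log2 ratio of H over N with SD (n = 3 arrays) of F26A3.4, F22B5.4 and 3 heat shock genes in wild type, the hif-1 mutant and the vhl-1 mutant. F26A3.4 stands at 2.98, 1.94 and 2.22, while F22B5.4 stands at 2.26 in wild type and near 0 in both mutants.

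Other lists of signalling and stress genes had few named spots. Of 22 immune and toxin response genes irg-4, irg-5 and sysm-1 were measured and 0 of the 3 was called in any genotype. The lowest adjusted p among them was 0.0542, for sysm-1 in the vhl-1 mutant (-0.72). None of 30 MAP kinase cascade genes and none of 18 oxidative and detoxification genes had a named spot. Of the tissue markers only the cuticle collagens col-19 and dpy-7 were measured, with means between -0.25 and 0.95 in the 3 genotypes and no call, so the tissue makeup of the RNA could not be checked.

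The tested named genes closest to F26A3.4 on chromosome I did not share its ratio. The nearer gene ego-1 has no named spot among the features tested. The nearest tested named genes at lower coordinates were F26A3.1 (7640348 to 7641767), D2030.8 and D2030.7, and those at higher coordinates F26A3.5 (7667729 to 7669900), F26A3.7 and T23G11.7. They lie between 9437 and 66412 bases from F26A3.4, and their means over genotypes were between -0.49 and 0.12. The closest, F26A3.5, was at -0.15 for wild type, -0.43 for the hif-1 and -0.39 for the vhl-1 mutant. D2030.7 was called in the vhl-1 mutant, where it fell by 1.23 ± 0.03 (SD, n = 3; limma adjusted p = 0.00857), and the other 5 genes were called in no genotype. In that genotype 5.15% of all features were called lower. The call was lost without vhl-1 mutant array 2 (0.0727) or array 3 (0.0655). D2030.7 was also called in the mean over genotypes (-0.49, limma adjusted p = 0.0245), where 10.5% of features were called lower, a call lost without wild type array 1 or 2, hif-1 mutant array 3 or vhl-1 mutant array 2 or 3 (0.0586 to 0.0663). Its vhl-1 mutant mean was not distinguished from the hif-1 mutant mean (difference -0.51, limma adjusted p = 0.838).

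Among 6761 other named genes with 9 values, those closest to F26A3.4 in size of the ratio were T27F6.8, cest-24, F52E10.4, T28C12.5 and dpsm-1, by the root mean square difference over the 9 arrays (0.71 to 1.18 log2 units, against a median of 2.67 over all genes compared). They were picked for this likeness, so their values are a description, and the arrays they share also share their dye orientation and array-wide deviations. T27F6.8 was at 0.67, 3.82 and 2.45 on the wild type arrays, at 0.39, 2.77 and 2.46 on the hif-1 mutant arrays and at 0.61, 1.58 and 2.07 on the vhl-1 mutant arrays. Like F26A3.4 it was highest on wild type array 2 and lowest on hif-1 mutant array 1. cest-24, of the carboxylesterase family, had means of 1.90, 2.06 and 1.72 in wild type, the hif-1 mutant and the vhl-1 mutant, and T28C12.5 had 1.83, 2.26 and 1.57. These 2 genes lie 464 bases apart on chromosome V. F52E10.4 had means of 1.70, 1.97 and 1.66, and dpsm-1 of 1.58, 1.79 and 1.42. In these 4 genes the hif-1 mutant had the highest of the 3 means, and in F26A3.4 and T27F6.8 wild type had it; the SDs within genotypes, 0.47 to 1.77 for the 5 genes, exceed most of these steps.

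**Figure D5:**
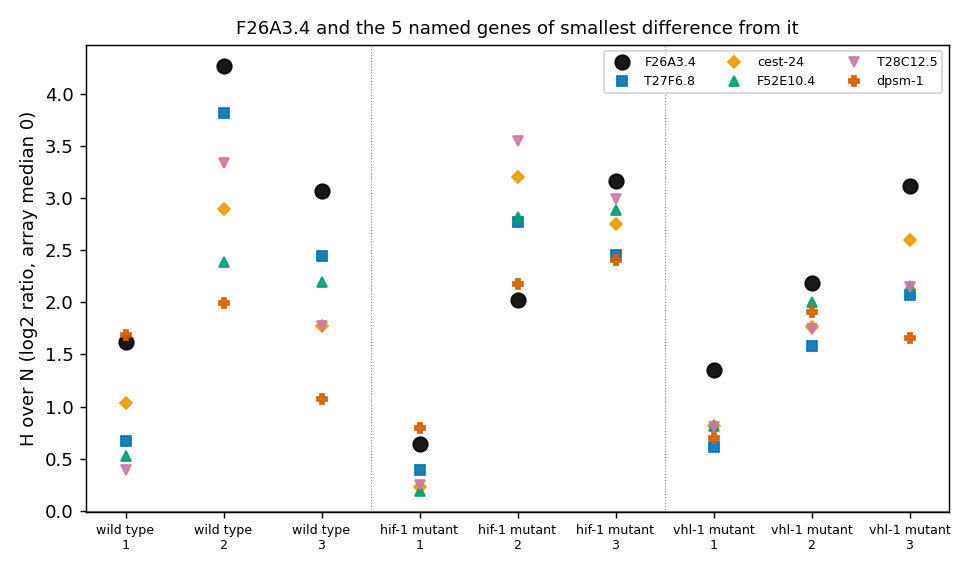
Log2 ratio of H over N on each of the 9 arrays for F26A3.4 (black circles) and the 5 named genes with the smallest root mean square difference from it. The 6 genes lie above 0 on every array, and all of them are low on hif-1 mutant array 1, between 0.19 and 0.79. On vhl-1 mutant array 1 they lie between 0.61 and 1.35, and on wild type array 1 between 0.39 and 1.69.

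By Pearson's correlation over the 9 arrays, which ignores the size of the ratio, the most similar named genes were semo-1, of the selenium-binding protein family (r = 0.982), C56E6.2 (r = 0.964), Y44A6C.1 (r = 0.942), T03E6.2 (r = 0.907), F36H5.9 (r = 0.905), F21D9.4 (r = 0.90), F35C11.2 (r = 0.898) and F56H11.2 (r = 0.893). The median r over the 6761 genes was -0.00, and 6 genes exceeded 0.9. With 9 arrays and 6761 genes some high values arise without any relation, and these are given with no p. semo-1 closely followed the order of F26A3.4 on a smaller scale, from -0.07 on hif-1 mutant array 1 to 1.42 on wild type array 2. T03E6.2 was lower in H on all 9 arrays, between -1.57 and -0.20, so this likeness is one of pattern over arrays and not of direction. None of these 8 genes was among the 5 closest in size.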

How the data were processed

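The authors deposited 1 log ratio per spot and array, read here as log2 ratios of channel 2 (Cy5, N) over channel 1 (Cy3, H); base and direction are assumed. The sources used here state no image analysis, background correction or normalisation, and intensities were not used, so signal over background is unknown. Array medians ran from -0.062 to 0.061 as deposited. The sign was turned to H over N and each array was centred on its median. Names came from the platform annotation (7774 spots, 35.5%), updated by gene identifier through the RefSeq table of WBcel235 (7741 spots). Features with at least 2 values per genotype were kept, spots of one gene averaged, and 1 mean per genotype fitted to all 9 arrays with limma 3.58.1 in R 4.3.3 (lmFit, eBayes; 6 residual and 6.95 prior degrees of freedom). A result passed at a Benjamini-Hochberg adjusted p under 0.05 over all features. The median SE of a response was 0.266, and that of F26A3.4 0.501; 3 arrays per genotype limit the precision. The fit was tested on simulated data with independent normal noise, which held no deviations shared between spots or arrays.

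F26A3.4, the gene lists and the tests were chosen with earlier results of these data known. The genes named are F26A3.4, the 8 named genes of highest Pearson r and the 5 of smallest root mean square difference, measured members of the lists (MAP kinase cascades, HIF pathway, heat shock, immune, oxidative, tissue markers), the 3 nearest named genes on either side, and F22B5.4, F44E5.4, F44E5.5 and hsp-16.21. ego-1 and T08E11.8 were named after their place or values were seen. A planned comparison of proteins was not run, as no protein table was used here. One of the lists is not reported here. Alternatives were uncentred values, one spread for all arrays, print block centring, both filters on missing values, spots not averaged, named genes only, robust eBayes, only the arrays compared, replicate number as a block, exact permutation and each array left out.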

Additional observations from a re-analysis of the deposited data

Results flagged for a closer look

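D2030.7, 66412 bases from F26A3.4, averaged 0.48 for wild type, -0.73 for the hif-1 mutant (difference -1.20, limma adjusted p = 0.642) and -1.23 for the vhl-1 mutant (difference from wild type -1.71, adjusted p = 0.25). Its ratio of H over N was above 0 on every wild type array and below 0 on every array of both mutants, but neither difference passed the test over all features. In 9.16% of features the wild type and hif-1 mutant arrays did not overlap, and in 18% the wild type and vhl-1 mutant arrays.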

How the results depend on the processing

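In 79 tests of F26A3.4 between genotypes under alternatives, 0 passed (lowest limma adjusted p 0.424). The 79 include the exact permutation tests between pairs of genotypes, which cannot go below p = 0.1 and so could not pass. With arrays left out in turn, hif-1 mutant minus wild type ran from -1.73 to -0.39, vhl-1 mutant minus wild type from -1.45 to -0.12 and vhl-1 minus hif-1 mutant from -0.37 to 0.89, negative without hif-1 mutant array 1 (-0.37) or vhl-1 mutant array 3 (-0.17); the cause was not tested. The F statistic ran from 0.18 to 3.34. The means ran from 2.34 to 3.67 in wild type, 1.33 to 2.59 in the hif-1 mutant and 1.77 to 2.65 in the vhl-1 mutant, and under the other settings from 2.83 to 3.42, 1.91 to 2.09 and 2.02 to 2.25. With arrays scaled to one spread the hif-1 mutant and the vhl-1 mutant stood 1.42 and 1.41 below wild type (-1.42 and -1.41; adjusted p = 0.809 and 0.591).

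Same-numbered arrays of different genotypes correlated between -0.204 and 0.272 in their deviations from the genotype means (9 pairs), and 3 of 9 arrays correlated best with their own number, so the numbers were not taken as pairing. With the replicate block the differences of F26A3.4 had adjusted p of 0.817, 0.619 and 0.949 and its F test 0.667.

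Wild type calls in the heat shock list were 2 with scaled arrays or the wild type arrays alone, 3 with the replicate block, 0 with print block centring or named genes only, and 0 to 2 with arrays left out. Hif-1 mutant calls were 1 with scaled arrays, 1 with named genes only and 1 to 3 with arrays left out. These ranges cover the 7 fits that could test all 4 genes, since hsp-16.20 has too few values without hif-1 mutant array 1 or 2. The HIF list had 0 calls in wild type with named genes only and 0 to 1 with arrays left out, and the immune list 1 in the vhl-1 mutant with print block centring and 0 to 1 with arrays left out. Under the other settings, calls over all features ran from 0 to 540 in wild type and 18 to 426 in the hif-1 mutant. In the vhl-1 mutant they ran from 302 to 2794. The main fit had 296, 365 and 1915. The lowest count in each came with named genes only, a fit of 7179 features in place of 20858. With arrays left out the counts ran from 82 to 376, 58 to 349 and 412 to 2612. Of the 8 genes of highest r, 2 to 6 were kept with arrays left out, 3 with print block centring, 4 with scaled arrays and 4 by Spearman's rho; of the 5 closest in size 4 or 5 were kept.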

Other observations

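In each genotype the lowest F26A3.4 value came from the array numbered 1 (1.62, 0.64 and 1.35). The arrays numbered 3 gave 3.07, 3.16 and 3.12, an SD of 0.05 across genotypes. The labels do not say that a number marks a shared day or batch. Of the named genes closest in size, T27F6.8, cest-24, F52E10.4 and T28C12.5 were also lowest on array 1 in every genotype, and dpsm-1 was not. Of those with the highest Pearson r, semo-1, C56E6.2, Y44A6C.1, T03E6.2, F35C11.2 and F56H11.2 were so, and F36H5.9 and F21D9.4 were not. Both sets were picked for likeness over these same arrays, which can itself bring in such genes. The array numbered 1 was the lowest of its genotype in all 3 genotypes in 5.95% of the 19473 features with 9 values, and in 16.7% of the 162 other features with a mean of at least 1. The median of those 162 features was 0.93, 0.87 and 0.79 on the arrays numbered 1 of wild type, the hif-1 mutant and the vhl-1 mutant, and 0.68 to 1.68 on the other arrays, so that on hif-1 mutant array 1 F26A3.4 lay below it. With the replicate number as a block the residual SD of F26A3.4 was 0.69 in place of 1.18.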
